A study of Vicia sativa with 8 samples.

Results

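Stamens and roots of the common vetch (Vicia sativa, a legume of the pea tribe) were compared unigene by unigene, and a second list held the unigenes that were high in both organs. The study sequenced mRNA from 8 organs of the cultivar Lanjian 3, with 1 library per organ, and counted the reads on 71553 unigenes. A unigene is a transcript fragment assembled without a genome, so several unigenes can come from 1 gene, and each is named here by its best match in the nr protein database. The stamens were dissected just before the flower opened, at floral stage 12, from plants grown for about 45 days in a greenhouse, and flowers of many plants were pooled. The roots came from seedlings aged 2 weeks. Of the 3 organs set beside them in the second list, leaves came from such seedlings too, and sepals and carpels from the same flower stage as the stamens. The labels name no transgene and no treatment for either organ. Organ, plant age and life stage differed together between the libraries and cannot be told apart, and neither can fewer cells of a type and less RNA per cell. With 1 library per organ there is no spread between replicates and no test, and every interval below covers counting error only.

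A read was found for 63888 unigenes in stamens and for 62400 in roots, of 69017 with a read in either, and the stamen and root libraries held 85.5% and 92.9% of the reads of the deepest library of the series. The comparison used the 41947 unigenes with at least 30 reads over both libraries. Levels are given as RPKM, the reads scaled to unigene length and to the library total. A unigene was called higher in an organ when its RPKM there was at least 5 times that in the other, with a library at 0 set to 3 reads. By this rule 5528 unigenes (13.2% of those compared) were higher in stamens and 4477 (10.7%) were higher in roots, together 10005 (23.9%). A further 19416 (46.3%) lay within 2 times of each other. Counts of list members higher in 1 organ are to be read below against these 13.2% in stamens and 10.7% in roots. The median log2 ratio of stamens over roots was -0.07, with quartiles of -1.14 and 1.06.

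Stamens make and shed pollen, and each pollen grain later extends a tube through the style by tip growth, in which new wall and membrane are added at the tip of the cell. The tube wall is rich in pectin, and pectin methylesterases, pectate lyases and polygalacturonases modify or cut that pectin. Root hairs extend by tip growth too, and both cell types are known to use calcium, NADPH oxidases and an actin cytoskeleton. Roots take up minerals and water, stiffen their walls with peroxidases and lignin, and in legumes house nitrogen-fixing nodules.

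The primers below are shown because they tie 4 of the called unigenes to bases, 2 higher in stamens and 2 higher in roots, and they are the qPCR oligos that the study designed against those unigenes, written 5′ to 3′. Unigene65459 matched Aquaporin NIP1-3, a channel of the nodulin-26-like group, and Unigene62913 matched GASA5, a small cysteine-rich protein of the gibberellin-regulated family. Unigene12573 matched a cellulose synthase and Unigene66351 matched an arabinogalactan protein, both parts of the cell wall and its making.
Unigene65459 forward: gcaatcaacacattaagcaacaa
Unigene65459 reverse: gataatagagcgattggcgagt
Unigene62913 forward: cgagcacctatctccacacttt
Unigene62913 reverse: cagttcctctttattggaagtttcat
Unigene12573 forward: aactcttattgttatttggtctgtgc
Unigene12573 reverse: ggatcaattctcacccaaacc
Unigene66351 forward: ggtttcccttggagtttcgt
Unigene66351 reverse: gctcttcaacttcaacatcacaa

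Unigene65459 had 2076 reads in stamens and 7 in roots (RPKM 584 and 1.81), and Unigene62913 had 1194 reads in stamens and 32 in roots (RPKM 401 and 9.89). Both were low in roots, and NIP1-3 was also lower in the other 6 organs, at an RPKM of 1.57 to 41.7. Unigene12573 had 535 reads in roots and 2 in stamens (RPKM 59.7 and 0.242), and Unigene66351 had 586 reads in roots and 3 in stamens (RPKM 140.4 and 0.781). These root values were not the highest of the series, since sepals reached an RPKM of 219 and 515 for the same unigenes.

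**Figure D1:**
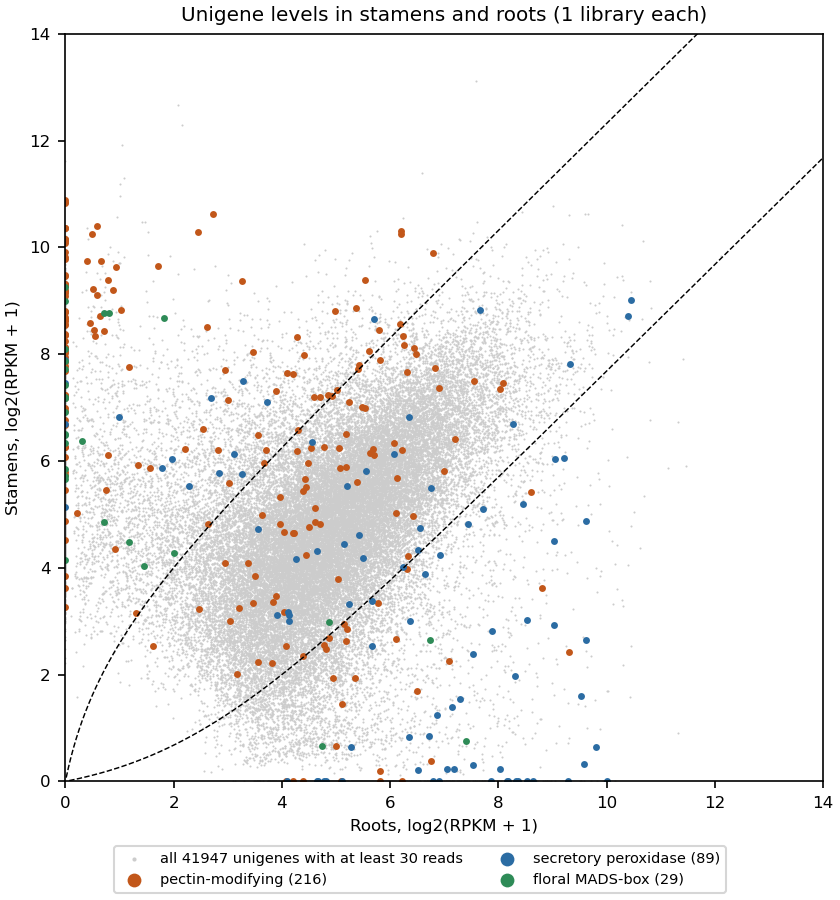
Stamen against root level of the 41947 unigenes with at least 30 reads over both libraries, as log2(RPKM + 1), with dashed lines where the ratio is 5. The pectin-modifying unigenes crowd the upper left, where 125 of 216 were higher in stamens, and the peroxidases the lower right, where 49 of 89 were higher in roots.

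The organ labels were checked on marker genes. Of the 29 compared unigenes named as MADS-box factors, 25 were higher in stamens and 3 in roots, with a median log2 ratio of 6.01. The B-class organ identity factors specify petals and stamens: PISTILLATA (Unigene20940) had 427 reads in stamens and 0 in roots, and APETALA3 (Unigene63356) had 366 and 0. The C-class factor AGAMOUS specifies stamens and carpels, and 3 of its unigenes (Unigene45078, Unigene15724 and Unigene53994) had 631, 639 and 282 reads in stamens against 1, 0 and 0 in roots. The 3 MADS-box unigenes higher in roots carry no floral identity name: Unigene62483 had 529 reads in roots and 2 in stamens, and Unigene62082 had 326 and 15. The third, Unigene14122, matched AGL17, known from roots in Arabidopsis, and had 95 reads in roots and 2 in stamens. Photosystem and light harvesting unigenes, which mark green tissue, took 0.0183% of the root reads and 1.43% of the leaf reads. On the root side, Unigene45280, matching peroxidase 27, had 1640 reads in roots and 0 in stamens, and was at least 503-fold higher in roots. Of 89 compared peroxidase unigenes, 49 were higher in roots and 15 in stamens. The nodulin and mineral uptake lists, also taken as root markers, were called about as often in stamens as in roots. They had 24 and 24 of 104 higher in roots and stamens (23.1% each), and 24 and 28 of 111 (21.6% and 25.2%). The shares over all compared unigenes were 10.7% and 13.2%. By summed reads the nodulin list was 1.44 (95% interval 1.41 to 1.47) times as abundant in roots, and the mineral uptake list 1.14 (1.12 to 1.17) times.

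Pollen genes were called mostly in stamens. Of 60 compared unigenes with pollen, anther-specific, tapetum or male sterility in their name, 27 were higher in stamens and 7 in roots (median log2 ratio 1.87), and the list took 0.2704% of the stamen reads and 0.0953% of the root reads. The pollen-specific protein NTP303 (Unigene21809), a wall-associated protein of pollen tubes, had 984 reads in stamens and 0 in roots (RPKM 1138 and 0) and was at least 357-fold higher in stamens. Unigene1192, an Ole e 1-like pollen protein, had 2929 reads in stamens and 0 in roots (RPKM 3134 and 0), and was at least 1061-fold higher. The root members named here carry words of male sterility and not of pollen: Unigene16010, named for male sterility MS5, had 406 reads in roots and 24 in stamens (RPKM 51.9 and 3.34), and Unigene55056, a restorer of cytoplasmic male sterility, had 100 reads in roots and 1 in stamens (RPKM 45.6 and 0.495). The list was not particular to stamens, since carpels gave it 0.286% of their reads. The ventral petals, which enclose the stamens in this flower, held these pollen unigenes as well, NTP303 at an RPKM of 155 and Unigene1192 at 652, while the lateral petals held 7.38 and 15.6. Whether pollen lay on the ventral petals was not tested.

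Pectin-modifying unigenes, a list that also holds inhibitors of these enzymes, gave the most called unigenes of any cell wall list in stamens. Of 216 compared, 125 were higher in stamens and 26 in roots, and the median log2 ratio was 3.07. Together they took 2.02% of the stamen reads and 0.264% of the root reads, a ratio of 7.66 (95% interval 7.53 to 7.79). Pectate lyases, which cut de-esterified pectin, were higher in stamens in 23 of 37 unigenes, and their summed share was 13.4 (95% interval 12.7 to 14.01) times that of roots. Unigene28855, a pectate lyase, had 1827 reads in stamens and 0 in roots (RPKM 1809 and 0) and was at least 662-fold higher in stamens, and Unigene40550, also a pectate lyase, had 2043 reads in stamens and 8 in roots (RPKM 1572 and 5.66). Polygalacturonases, which hydrolyse the pectin backbone, were higher in stamens in 31 of 54. Among them Unigene48777 had 2113 reads in stamens and 0 in roots (RPKM 1311 and 0). Pectin methylesterases remove methyl groups from pectin, and 43 of 71 were higher in stamens. Unigene33534, named methylesterase PCR A, had 2035 reads in stamens and 0 in roots (RPKM 1839 and 0), and Unigene50560, an inhibitor of invertase or pectin methylesterase, had 3220 reads in stamens and 0 in roots (RPKM 1885 and 0). These 3 enzyme families were singled out after their values had been seen.

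Roots had pectin enzymes, and an inhibitor of such enzymes, of their own. Unigene55883, matching the tomato pectin methylesterase PME1.9, had 3297 reads in roots and 67 in stamens (RPKM 1452 and 32.1) and was 45.3-fold higher (95% interval 35.5 to 58.6) in roots. Unigene43998, a pectin methylesterase matched to a legume, had 682 reads in roots and 16 in stamens (RPKM 444 and 11.3). Unigene48843, which matched a polygalacturonase inhibitor, a protein known to block microbial polygalacturonases, had 1103 reads in roots and 7 in stamens (RPKM 628 and 4.33).

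Tip growth machinery was searched by name. Of 14 LIM proteins, which bundle actin filaments, 6 were higher in stamens and 0 in roots: Unigene59866, the pollen-type PLIM2a, had 1359 reads in stamens and 0 in roots (RPKM 542 and 0), and Unigene23460, named WLIM-1, had 594 reads in stamens and 2 in roots (RPKM 662 and 2.05). Both called RALF peptides of 6 unigenes in their list, small signals that change pH at the cell surface, were higher in stamens, Unigene41632 with 580 reads against 0 and Unigene58844 with 792 against 1.

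The actin list as searched had 123 compared unigenes, 19 higher in stamens and 9 in roots, but its word formin also matched enzymes whose names end in forming. With formin read as a whole word, a change made after the values were seen, 18 of 108 (16.7%) were higher in stamens and 7 (6.5%) in roots. The shares over all compared unigenes were 13.2% and 10.7%, and the median log2 ratio of the list was 0.03. A profilin (Unigene20480), which binds actin monomers, had 498 reads in stamens and 0 in roots (RPKM 594 and 0). Unigene54708, a beta-actin, had 1499 reads in stamens and 319 in roots (RPKM 754 and 148). Both were higher in stamens, profilin with no root read. Calcium signalling (36 and 35 of 245), phosphoinositide signalling (15 and 10 of 111) and extensins with arabinogalactan proteins (25 and 26 of 176) had calls on either side at shares near those of all unigenes. Single members lay far apart all the same. Unigene45539, a fasciclin-like arabinogalactan protein, had 1941 reads in stamens and 0 in roots (RPKM 1324 and 0), whereas Unigene40829, an extensin-like wall protein, had 700 reads in roots and 0 in stamens (RPKM 491 and 0).

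NADPH oxidases make superoxide at the cell surface, and their list also held COBRA proteins, which orient cellulose. Of its 33 compared unigenes, 6 (18.2%) were higher in stamens and 7 (21.2%) in roots, beside 13.2% and 10.7% of all unigenes. The named stamen members were both COBRA-like 4, with RPKM of 503 and 243 in stamens and 26.2 and 12.7 in roots. The named root members were both oxidases. Respiratory burst oxidase C (Unigene47763), whose Arabidopsis counterpart is needed for root hair growth, had 233 reads in roots and 3 in stamens (RPKM 137 and 1.92), and oxidase D (Unigene48081) had 254 reads in roots and 6 in stamens (RPKM 148 and 3.800).

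Further stamen unigenes of high level were wall, lipid and small secreted proteins. Unigene18694, a xyloglucan endotransglycosylase that cuts and rejoins wall xyloglucan, had 4019 reads in stamens and 3 in roots (RPKM 4988 and 3.43) and was 1456-fold higher (95% interval 498 to 7064) in stamens. Unigene19590, a lipid transfer protein, had 2046 reads in stamens and 1 in roots (RPKM 2506 and 1.13). Lipid transfer proteins and oleosins were called in both directions, 10 in stamens and 5 in roots of 24. Glutamate decarboxylase makes the amino acid GABA, and its unigene Unigene53363 had 2817 reads in stamens and 153 in roots (RPKM 1494 and 74.7). Unigene4666, a Bet v I allergen family protein, had the highest stamen level of the annotated called unigenes, with 5569 reads in stamens and 3 in roots (RPKM 6521 and 3.23), and was higher still in carpels at an RPKM of 11720. The same family gave one of the highest root unigenes, Unigene41837, with 3973 reads in roots and 319 in stamens (RPKM 2733 and 239). The Bet v I family thus had members at a high level in each organ.

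Of 116 unigenes for sugar transport and breakdown, 30 were higher in stamens and 14 in roots, although the named stamen members were inhibitors of invertase or pectin methylesterase, not sugar enzymes. Of 65 starch unigenes, 13 were higher in stamens and 3 in roots (1 in roots under median-of-ratios scaling), but the list took 0.168% of the stamen reads and 0.174% of the root reads and its median log2 ratio was -0.06. A beta-amylase (Unigene37445), which releases maltose from starch, had 782 reads in stamens and 99 in roots (RPKM 647 and 75.4). The nodulin word also matched MtN3 proteins, a family now known as sugar exporters. Unigene51931 of this family had 670 reads in stamens and 0 in roots (RPKM 375 and 0), and Unigene52811 had 451 reads in stamens and 1 in roots (RPKM 244 and 0.498). Neither had more than 1 root read.

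**Figure D2:**
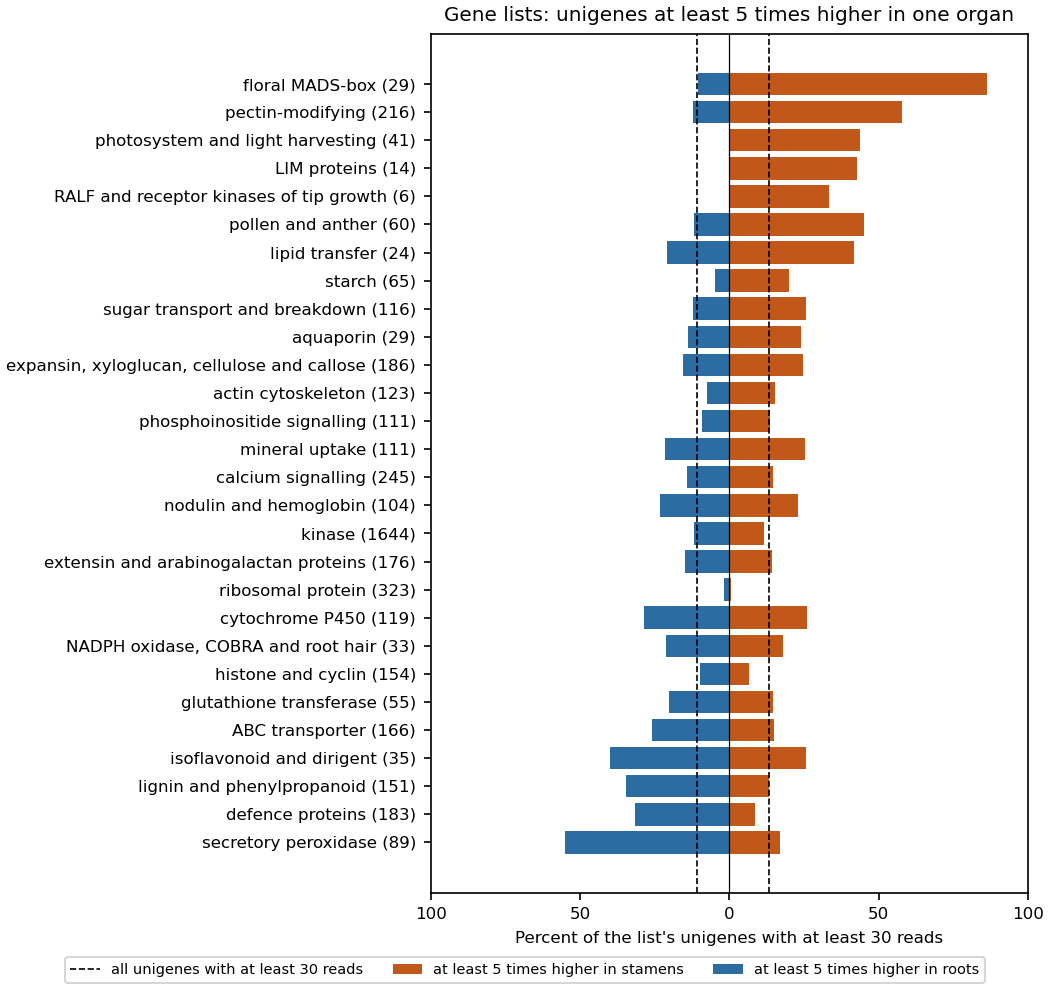
Percent of the compared unigenes of 28 word lists that were at least 5 times higher in stamens (to the right) or in roots (to the left), with the number compared in parentheses and dashed lines at the 13.2% and 10.7% of all unigenes. MADS-box and pectin lists reach furthest to the right and peroxidases furthest to the left.

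In roots the peroxidases stood out. Class III peroxidases are secreted enzymes that cross-link wall polymers and polymerise lignin. Of 89 compared, 49 were higher in roots and 15 in stamens, and the median log2 ratio was -2.85. The list took 0.194% of the stamen reads and 0.795% of the root reads, and the ratio of roots over stamens was 4.09 (95% interval 4.01 to 4.18). Besides peroxidase 27, Unigene51398 had 1707 reads in roots and 1 in stamens (RPKM 894 and 0.569). The stamen side held Unigene65223, with 824 reads in stamens and 0 in roots (RPKM 236 and 0), and an annexin (Unigene35501) whose annotation also names peroxidase activity. Lignin and phenylpropanoid unigenes were higher in roots in 52 of 151 and in stamens in 20, and the list took 0.303% of the stamen reads and 0.3297% of the root reads. Caffeoyl-CoA O-methyltransferase, a step of lignin precursor synthesis, had 311 reads in roots and 18 in stamens (RPKM 344 and 21.6) for Unigene20441. Caffeic acid O-methyltransferase, a neighbouring step, was higher in stamens, with 1121 reads in stamens and 83 in roots (RPKM 514 and 35.02) for Unigene56813.

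The root levels of sucrose and fermentation enzymes were among the highest. Sucrose synthase cleaves sucrose for growth and wall making: Unigene31761 had 3272 reads in roots and 63 in stamens (RPKM 2816 and 58.9), and Unigene3935 had 4690 reads in roots and 110 in stamens (RPKM 2238 and 57.05). Of 18 compared unigenes of that name, 4 were higher in roots and 0 in stamens. Pyruvate decarboxylase, the first step from pyruvate to ethanol, was higher in roots in 14 of 15 unigenes, with a median log2 ratio of -6.02, and summed to 0.194% of the root reads and 0.0128% of the stamen reads. Unigene31111 had 1434 reads in roots and 10 in stamens (RPKM 1253 and 9.499) and was 132-fold higher (95% interval 71.5 to 276). The exception, Unigene19096, had 507 reads in stamens and 80 in roots (RPKM 625 and 90.7). Alcohol dehydrogenase completes the path, and it split by count into 5 unigenes higher in roots and 6 in stamens of 28: Unigene12871 had 5442 reads in roots and 655 in stamens (RPKM 1755 and 229.7), while Unigene39070 had 231 reads in stamens and 24 in roots (RPKM 184 and 17.6). By summed reads the name took 0.192% of the root reads and 0.0704% of the stamen reads, a ratio of 2.73 (95% interval 2.63 to 2.83). The ethanol, sucrose, ethylene, lipoxygenase and asparagine families described here were chosen after their values had been seen.

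The ethylene pathway divided between its 2 last steps. ACC synthase makes the ethylene precursor ACC, and 10 of 11 unigenes were higher in stamens and 0 in roots. Unigene44285 had 1247 reads in stamens and 47 in roots (RPKM 879 and 30.5) and was 28.8-fold higher (95% interval 21.6 to 39.5), and Unigene60284 had 1140 reads in stamens and 72 in roots (RPKM 445 and 25.9). ACC oxidase turns ACC into ethylene, and its unigenes divided into 5 higher in roots and 4 in stamens of 14. Unigene48905 had 2048 reads in roots and 18 in stamens (RPKM 1165 and 11.1) and Unigene59978 had 2567 reads in roots and 34 in stamens (RPKM 935 and 13.5), whereas Unigene23253 had 224 reads in stamens and 9 in roots (RPKM 251 and 9.29). By summed reads ACC synthase was 18.3 (95% interval 16.3 to 20.7) times as abundant in stamens, and ACC oxidase 6.26 (95% interval 5.86 to 6.68) times as abundant in roots. Unigene61325, an ethylene signal transcription factor, had 3948 reads in roots and 42 in stamens (RPKM 1342 and 15.5).

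Lipoxygenases, which oxidise fatty acids on the way to jasmonate and other oxylipins, were called nearly equally often in each organ, 19 in stamens and 18 in roots of 51, a higher share in each direction than over all unigenes. Unigene29064, matching the pea lipoxygenase loxN2, had 1253 reads in roots and 0 in stamens (RPKM 1136 and 0), and Unigene11234 had 1122 reads in stamens and 55 in roots (RPKM 785 and 35.4). Asparagine synthetase makes the amide that legumes use to carry nitrogen, and it was higher in roots in 7 of 8 unigenes and in stamens in 0. Unigene28677 had 1467 reads in roots and 67 in stamens (RPKM 1337 and 66.4).

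**Figure D3:**
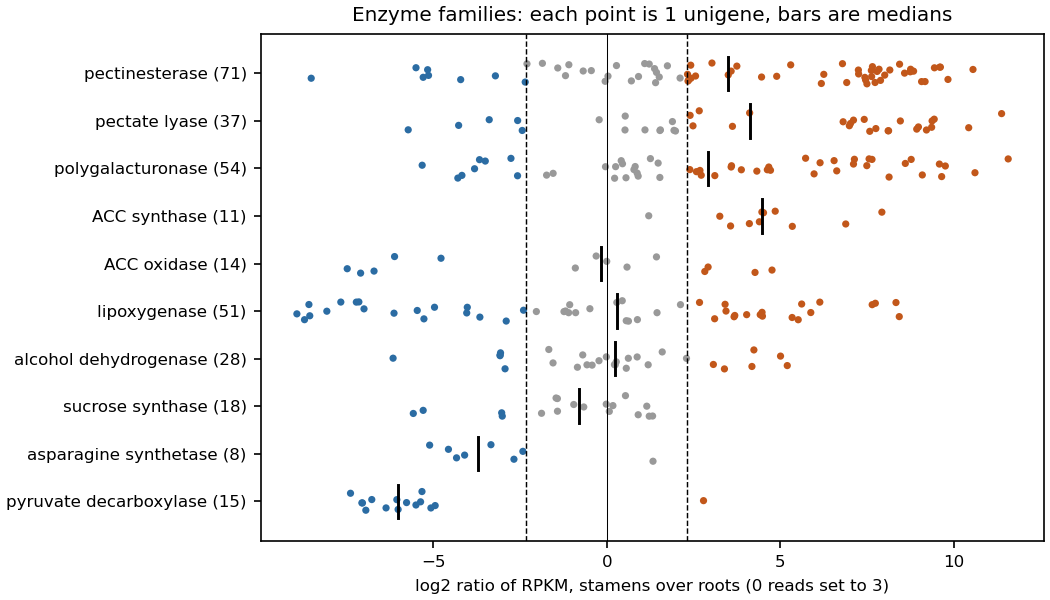
Log2 ratio of RPKM of stamens over roots for each compared unigene of 10 enzyme families, with medians as bars and dashed lines at a ratio of 5 in either direction. Pectate lyases and ACC synthases lie mostly to the right, pyruvate decarboxylases and asparagine synthetases mostly to the left, and lipoxygenases on both sides.

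The nodulin list had as many unigenes higher in roots as in stamens (24 and 24 of 104, or 23.1% each). The shares over all compared unigenes were 10.7% and 13.2%. By summed reads the list was 1.44 (95% interval 1.41 to 1.47) times as abundant in roots. Its named root members were early nodulins, Unigene11574 with 3759 reads in roots and 5 in stamens (RPKM 1376 and 1.99) and Unigene38593 with 1898 reads in roots and 6 in stamens (RPKM 1401 and 4.82). Whether these roots bore nodules is not stated by the labels or methods. Defence proteins were higher in roots in 58 of 183 and in stamens in 16 (median log2 ratio -1.43). Unigene35757, a germin, a secreted protein of the cupin family, had 3221 reads in roots and 1 in stamens (RPKM 2554 and 0.862) and was 2963-fold higher (95% interval 531 to 117077). A PR10 protein (Unigene29521) went the other way, with 1038 reads in stamens and 148 in roots (RPKM 1012 and 133). Isoflavonoid and dirigent unigenes were higher in roots in 14 of 35 and in stamens in 9. Chalcone synthase opens flavonoid synthesis, and its unigenes were met on each side, Unigene46179 with 2042 reads in roots and 13 in stamens (RPKM 1258 and 8.71) and Unigene53565 with 296 reads in stamens and 0 in roots (RPKM 156 and 0).

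Mineral uptake unigenes were called in stamens in 28 (25.2%) and in roots in 24 (21.6%) of 111, beside 13.2% and 10.7% of all unigenes. The root members named were an iron transporter (Unigene61941), with 743 reads in roots and 0 in stamens (RPKM 244 and 0), and a high affinity phosphate transporter (Unigene42699), with 295 reads in roots and 9 in stamens (RPKM 199 and 6.597). The stamen members named were the potassium channel AKT5 (Unigene40444), with 244 reads in stamens and 20 in roots (RPKM 188 and 14.2), and a mitochondrial phosphate carrier (Unigene70978), with 1135 reads in stamens and 1 in roots (RPKM 150.1 and 0.122), which moves phosphate within the cell. Aquaporins were called in 7 in stamens and 4 in roots of 29 (2 in roots under either scaling). A tonoplast TIP-type unigene (Unigene55614) had 2180 reads in roots and 393 in stamens (RPKM 972 and 191), a call that ended under TMM or median-of-ratios scaling. Expansins, which loosen walls, were counted with xyloglucan, cellulose and callose enzymes, and 46 of 186 were higher in stamens and 29 in roots. Expansin A4 (Unigene57221) had 238 reads in stamens and 47 in roots (RPKM 107 and 19.5), whereas Unigene22239, alpha-expansin 3, had 313 reads in roots and 0 in stamens (RPKM 331 and 0), while Unigene61912 had 830 reads in roots and 3 in stamens (RPKM 272 and 1.07). Histone and cyclin unigenes were called in 15 in roots and 10 in stamens of 154 (median log2 ratio -0.65), shares below those of all unigenes. Cyclin B (Unigene70883) had RPKM of 8.56 in stamens and 84.1 in roots. Ribosomal protein unigenes took 0.948% of the stamen reads and 1.89% of the root reads, with a median log2 ratio of -1.03 but only 6 of 323 past 5 times in roots and 2 in stamens (4 in stamens under either scaling).

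The called unigenes were also described by their extent and by their levels in other organs. Of the 5528 higher in stamens, 1467 had no root read and 779 had a ratio of at least 100. They took 25.4% of the stamen reads and 1.34% of the root reads. Of the 4477 higher in roots, 571 had no stamen read and 294 had a ratio of at least 100, and they took 19.1% and 1.47%. The ventral petals reached at least 50% of the stamen RPKM for 65.3% of the stamen unigenes, the lateral petals for 51.3% and leaves for 22.2%. For the root unigenes the share of 50% or more of the root RPKM was highest in sepals, at 27.7%, and lowest in the ventral petals, at 14.3%. The same shares over all compared unigenes were not computed, so these are a description. Over all unigenes the Spearman correlation of stamens was 0.884 with ventral petals, 0.784 with lateral petals and 0.630 with leaves. That of roots was 0.688 with sepals and 0.608 with ventral petals. An nr match was found for 76.1% of the stamen unigenes and 86.3% of the root unigenes, beside 80.9% of all compared.

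The second list asked which unigenes stamens and roots share. A unigene entered it when its RPKM in stamens and in roots was each at least 5 times the highest of leaves, sepals and carpels, with at least 30 reads in both organs. Of 24237 unigenes with those reads, 117 entered (0.483%), and 724 did with no minimum of reads. These values chose the members and are given as a description. Their median RPKM was 44.9 in stamens and 56.6 in roots, against 1.01 in leaves, 1.82 in sepals and 2.14 in carpels. Stamens and roots lay within 2 times of each other for 64, while 16 were also called higher in roots and 9 in stamens. An nr match was found for 103.

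Glutamate synthase, an enzyme of nitrogen assimilation, was the most repeated name in the list. It makes glutamate with nitrogen taken from glutamine, and 7 of its 20 unigenes with at least 30 reads in each organ entered. Unigene65417, named as NADH-dependent, had 994 reads in stamens and 997 in roots (RPKM 280.4 and 259), against RPKM of 16.7 in leaves, 25.1 in sepals and 10.3 in carpels. Unigene27875 had 1013 reads in stamens and 512 in roots (RPKM 1019 and 474). Unigene33292 was named after the ferredoxin-dependent enzyme, the main form of leaves, and had RPKM of 149 in stamens, 221 in roots and 14.6 in leaves. The 7 fragments had stamen RPKM of 61.02 to 1019 and root RPKM of 112 to 474, and how many genes these 7 come from is not known. The family as a whole was not low in leaves: all unigenes of the name took 0.509% of the leaf reads, 0.144% of the root reads and 0.0905% of the stamen reads. Asparagine synthetase gave 3 members, of 8 with at least 30 reads in each organ. Their root RPKM was 423 to 767 and their stamen RPKM 41.8 to 126. Unigene60347 among them had RPKM of 126 in stamens and 672 in roots. These names were picked after the list had been seen.

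Several other members were enzymes of carbon metabolism or storage proteins. A cytosolic aldolase of glycolysis (Unigene66692) had 582 reads in stamens and 1034 in roots (RPKM 147 and 240.3) and an RPKM of at most 3.24 in leaves, sepals and carpels, and Unigene12694, also a cytosolic aldolase, had RPKM of 94.3 and 127. Alcohol dehydrogenase Unigene12871, described above among the root unigenes, was in the list with Unigene9090, at RPKM of 84.9 in stamens and 711 in roots. The vegetative storage protein Unigene65954, of the acid phosphatase family, had 976 reads in stamens and 622 in roots (RPKM 263 and 154). The nodulin MtN21 family, transporters of several kinds, gave 3 members, among them Unigene50806 with 376 reads in stamens and 1043 in roots (RPKM 219 and 558) and Unigene66715 with 48 reads in stamens and 943 in roots (RPKM 12.1 and 218). Both were higher in roots than in stamens. Of the unigenes with at least 30 reads over both organs, 2 of 23 aldolases, 3 of 55 acid phosphatases or storage proteins and 3 of 42 MtN21 unigenes entered. Of alcohol dehydrogenases with at least 30 reads in each organ, 2 of 17 entered, beside 0.483% of all such unigenes. These names too were picked after the list had been seen.

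**Figure D4:**
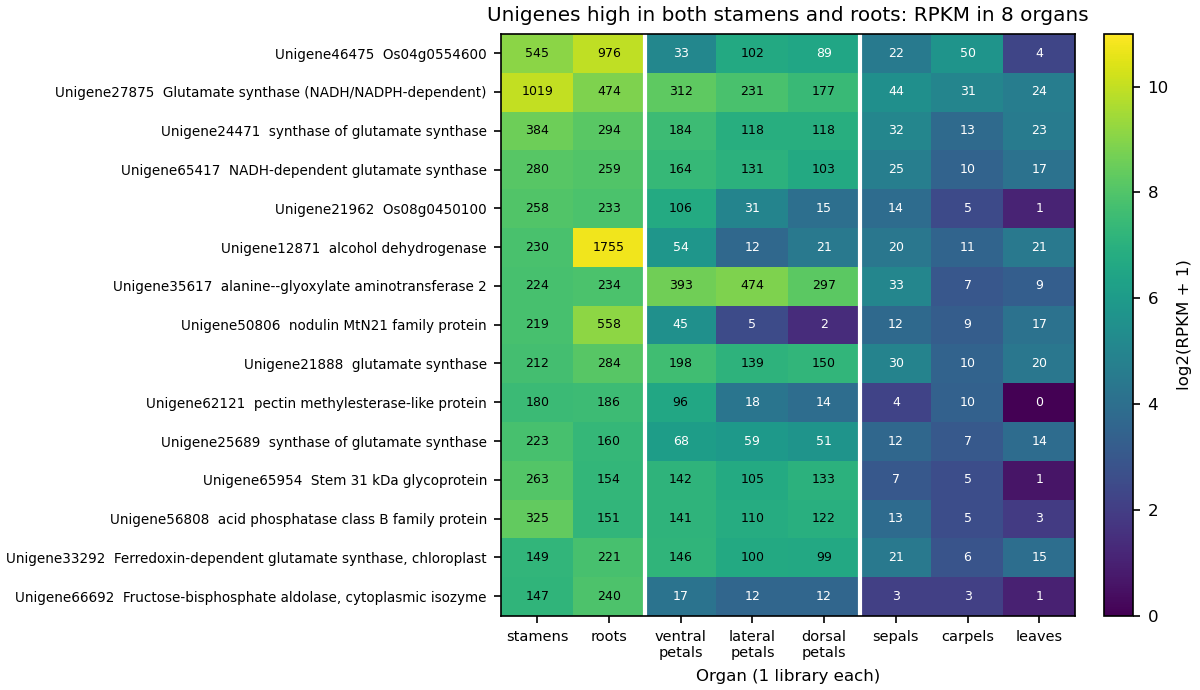
RPKM in 8 organs (numbers) of the 15 annotated unigenes with the highest smaller value of stamens and roots among the 117 high in both, coloured by log2(RPKM + 1). The rule compared stamens and roots with the 3 columns on the right. The petal columns, which it did not use, lie high for the glutamate synthase unigenes and low for aldolase. For nodulin MtN21 the dorsal and lateral petals lie low, and the ventral petals reach an RPKM of 45.4.

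Members of the word lists were counted against the 0.483% of all unigenes. Among unigenes with at least 30 reads in each organ, the lists for actin (0 of 88), LIM proteins (0 of 8), RALF peptides (0 of 4), NADPH oxidases with root hair proteins (0 of 18), phosphoinositides (0 of 80) and extensins with arabinogalactan proteins (0 of 95) had no member high in both. At 0.483% lists of these sizes would hold less than 1 unigene each, so nothing is read from these counts. The pollen list had 3 of 19, the pectin list 3 of 70, the nodulin list 3 of 44 and the calcium list 2 of 152. The aquaporin, expansin, lipid transfer and peroxidase lists had 1 each, of 19, 99, 7 and 33, and the kinase list had 4 of 1021. Unigene62121, a pectin methylesterase-like protein, had 511 reads in stamens and 575 in roots (RPKM 179.8 and 186), and Unigene29266, a pectinesterase inhibitor, had RPKM of 165 and 119. Unigene68595 and Unigene4287, partners of a pollen-specific receptor kinase, had stamen RPKM of 173 and 60.98 and root RPKM of 13.4 and 5.78. A pollen coat oleosin (Unigene64510) had 221 reads in stamens and 51 in roots (RPKM 66.7 and 14.2). An annexin (Unigene69365), which binds membranes with calcium, had 1343 reads in stamens and 734 in roots (RPKM 248 and 124). Outside the lists, and chosen after their values were seen, 2 of 76 myosin-named unigenes with at least 30 reads over both organs entered. These, Unigene17243 and Unigene65503, had RPKM of 27.9 and 40.3 in stamens and 29.7 and 20.3 in roots.

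The petals were not part of the rule. The ventral petals reached at least 50% of the smaller of stamen and root RPKM for 70 of the 117, the lateral petals for 45 and the dorsal petals for 36. The same counts over the 24237 were not computed, so nothing is read from these. The members were chosen for a high stamen level. Over all unigenes the Spearman correlation of stamens was 0.884 with ventral, 0.784 with lateral and 0.780 with dorsal petals. The ventral petals were the highest petal type for 74 of the 117, beside 39.97% of the 24237. When the petals had to be 5 times lower as well, 16 unigenes remained. They included both aldolases, nodulin MtN21 Unigene69534 and Unigene66715, peroxidase 17 (Unigene13629) and a unigene named terminal flower 1b (Unigene62792, RPKM 65.3 in stamens and 74.7 in roots). None of the 7 glutamate synthase or 3 asparagine synthetase unigenes was among the 16.

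The count of 117 was set beside the same count for every pair of stamens, roots, leaves, sepals and carpels, each pair against the other 3. The unigenes with at least 30 reads in each organ differed in number between pairs, so shares of them are given too, beside 0.483% for stamens and roots. Leaves and sepals shared 746 (2.86%), roots and carpels 310 (1.41%) and stamens and carpels 194 (0.878%). Stamens with sepals gave 108 (0.399%), roots with leaves 59 (0.264%) and stamens with leaves 44 (0.198%), and the remaining 3 pairs gave 25, 12 and 7. With each petal type in place of stamens, the count shared with roots was 92 (0.360%) for ventral, 82 (0.322%) for lateral and 64 (0.248%) for dorsal petals. Of these, 56, 32 and 26 were among the 117. All these lists set roots against the same leaves, sepals and carpels, so part of the overlap is built into the rule. Over the libraries the Spearman correlation of stamens and roots was 0.601, the lowest of the 7 correlations of stamens, as a description over unigenes that share the assembly.

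**Figure D5:**
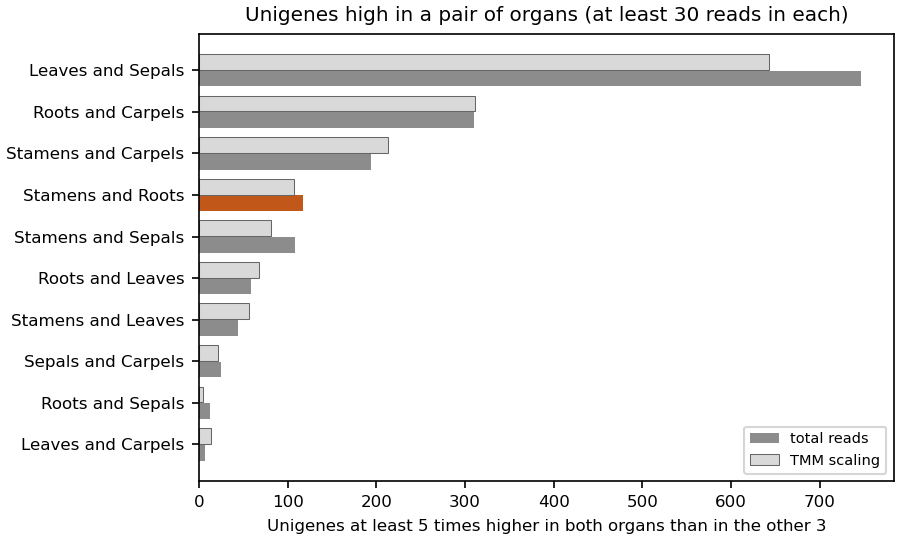
Number of unigenes at least 5 times higher in both organs of a pair than in each of the other 3 of stamens, roots, leaves, sepals and carpels, with at least 30 reads in each organ of the pair. Dark bars use total reads and light bars TMM scaling, and stamens with roots, in colour, follow leaves with sepals, roots with carpels and stamens with carpels, at 117 and 107.

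At the edge of the rule, Unigene2880 (5.01 times the highest of the 3 organs) and Unigene59492 (5.07 times) were just inside. A bZIP transcription factor (Unigene57347, 4.97 times) and an unconventional myosin (Unigene68682, 4.99 times) were just outside.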

How the data were processed

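According to the study, RNA of the 8 organs was mixed, and poly(A) RNA of the mixture was sequenced on an Illumina instrument and assembled de novo with SOAPdenovo and TGICL. A separate library of each organ was then sequenced to count reads on the unigenes. The authors deposited, per library, the count of reads aligned uniquely to each unigene, the RPKM made from those counts with unigene length and the library total, and the percent of each unigene covered. Neither the aligner nor the use of strand in counting is stated by the labels or methods. RPKM recomputed from the deposited counts differed from the deposited RPKM by at most 5.58e-09 as a relative difference. Where a library did not list a unigene, 0 reads were taken.

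Organs were grouped by their labels. Totals were 5371113 reads in stamens and 5838364 in roots, and over the series they ran from 5351178 to 6281382 reads, where 3 reads on 1 kilobase are an RPKM of 0.478 to 0.561. Unigenes with at least 30 reads over stamens and roots were compared by the ratio of RPKM, with a threshold of 5 and a library at 0 set to 3 reads. Intervals of ratios are exact binomial (Clopper-Pearson) intervals at 95% on the 2 counts. PCR copies were not marked, so intervals cover counting error only. Nothing was tested across organs, since each has 1 library. The ratio step was tested on simulated data. Python 3.11.15, pandas 2.3.3, scipy 1.17.1, R 4.3.3 and edgeR 4.0.16 (scaling factors only) were used.

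The 29 gene lists are word searches in the nr description. Named unigenes are, per direction, the 12 annotated and 2 unannotated of highest RPKM in the higher organ among those called, up to 2 per list and direction, the unigenes with primers that were called, the AP3, PI and AG unigenes, and, of those high in both, the 15 annotated with the highest smaller RPKM, the members of a list and those next to the threshold. The 12 added lists and the unigenes named from them, the annotation groups among the unigenes high in both and the members that the petals left were chosen after the values were seen. The comparison, its members and the lists were all chosen with earlier results of these data known. Alternatives changed the minimum of reads, the threshold, the scaling, the unit counted (distinct nr matches, unigenes of at least 300 bases), the lower bound of the interval and the organs compared. The results of 1 list are not reported here.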

Additional observations from a re-analysis of the deposited data

How the results depend on the processing

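The count of unigenes higher in stamens, 5528, became 3240 with at least 100 reads, 10896 at a threshold of 2, 3211 as distinct nr matches and 3309 among unigenes of at least 300 bases. The count higher in roots, 4477, became 2425 with at least 100 reads, 6902 with no minimum, 11635 at a threshold of 2, 2416 at 10, 2509 when the lower bound of the interval had to reach 5, 2893 as distinct nr matches, and 3270 among unigenes of at least 300 bases. At that length 50.3% of the calls were in stamens, beside 55.3% over all compared unigenes. The median length was 354 bases for the stamen calls and 465 for the root calls. The 117 high in both became 203 with at least 10 reads in each, 724 with no minimum, 528 at a threshold of 2, 58 at 10, 16 with the petals compared too, and 54 by the lower bounds, an alternative added after the data were seen. At the threshold of 2 the roots had more calls than the stamens, the reverse of the order at 5. TMM scaling raised every log2 ratio of stamens over roots by 0.11 and median-of-ratios scaling by 0.15, which turned the median over all compared unigenes above 0. The counts were then 5801 and 5888 for stamens and 4153 and 4051 for roots, and 103 and 96 of the 117 remained. Of the 191 named unigenes, 3 changed the sign of the log2 ratio under either scaling (Unigene35617, Unigene62121 and Unigene68682), and none of the 3 was called higher in an organ. Of 58 list counts, 55 stayed within 1.5 times under TMM, 54 under median of ratios and 25 at a threshold of 2.

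No paired analysis was possible because each organ has 1 library, and no library could be left out for the same reason. Depth limits unigenes of few reads: 607 of the 724 had under 30 reads in stamens or roots, and 491 had none in leaves, sepals and carpels. Members of 1 gene counted as several unigenes cannot be joined without a genome.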

Other observations

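Transport and detoxification families were called on either side. ABC transporters were higher in roots in 43 of 166 unigenes (25.9%) and in stamens in 25 (15.1%), beside 10.7% and 13.2% of all unigenes. Unigene48215, an ABC transporter of the G subfamily, had 862 reads in stamens and 0 in roots (RPKM 544 and 0), and Unigene72018 had 3753 reads in roots and 227 in stamens (RPKM 157 and 10.3). Cytochrome P450 unigenes were called in 34 in roots (28.6%) and 31 in stamens (26.1%) of 119, above the share of all unigenes in each direction. Unigene70284 had 1807 reads in stamens and 1 in roots (RPKM 283 and 0.144). Glutathione transferases were called in 11 in roots and 8 in stamens of 55. Unigene35639, a lambda class transferase, had 512 reads in roots and 0 in stamens (RPKM 406 and 0). Kinases by name, which include sugar and choline kinases, were called in 194 in roots and 190 in stamens of 1644, shares near the 10.7% and 13.2% of all unigenes. A receptor-like kinase (Unigene25114) had 1067 reads in roots and 42 in stamens (RPKM 1056 and 45.2) and was also high in both organs against leaves, sepals and carpels.

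Photosystem and light harvesting unigenes were higher in stamens in 18 of 41 and in roots in 0, but the list took 0.08196% of the reads in stamens and 0.0183% in roots, beside 1.43% in leaves. Unigene25273, a photosystem I protein, had RPKM of 233 in stamens, 12.8 in roots and 3555 in leaves. Among unigenes with no nr match, Unigene31289 had the highest stamen RPKM of those named, 8842 against 191 in roots, and Unigene231 the highest root RPKM, 1655 against 39.5 in stamens.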
